A study of Rattus norvegicus with 9 samples.

Results

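The let-7 family of the rat was followed through small RNA libraries of cultured aortic vascular smooth muscle cells. Its members here are the 8 let-7 guide strands in the deposited count table, rno-let-7a-5p, rno-let-7b-5p, rno-let-7c-5p, rno-let-7d-5p, rno-let-7e-5p, rno-let-7f-5p, rno-let-7g-5p and rno-let-7i-5p, and their sister rno-miR-98-5p. The rat prefix rno is left out from here on. These 9 mature miRNAs, of 762 in the table, are the 5p arms that carry the family's names. All 9 had counts in every library and were among the 304 miRNAs abundant enough to test. The study compared 3 states of the same cell type, with 3 libraries each. H3K4me2-edited cells had received, by lentivirus, an expression sequence named Myocardin-F-LSD1 in the labels. Myocardin drives the contractile genes of smooth muscle together with serum response factor, and LSD1 removes methyl groups from lysine 4 of histone H3. PDGF-BB cells were given platelet-derived growth factor BB, a mitogen for smooth muscle, at 30 ng/ml for 24 h, and differentiated cells had no treatment. The titles call both the edited and the PDGF-BB cells de-differentiated. A 24 h serum starvation is in the protocol of every sample, but whether it applied to all 3 groups is not stated. No control transduction was analysed here, so the virus and its construct cannot be told apart.

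A let-7 hairpin is cut by Drosha and then by Dicer into a duplex, of which the 5p arm is usually the guide strand that enters Argonaute and the 3p arm is mostly discarded. The guide finds messenger RNAs through its seed, so miRNAs that share a seed share most predicted targets. let-7 was found in the worm as a timing gene. In mammals it accumulates as cells differentiate, represses growth regulators such as Hmga2, Lin28 and Ras genes, and is itself held back by Lin28, which blocks the processing of its precursors.

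The mature sequences are shown because the family is defined by them and because their likeness limits how far counts of its members can be told apart. They were read from the RefSeq table of build GRCr8, which held all 9, and capitals mark the seed, bases 2 to 8.
let-7a-5p: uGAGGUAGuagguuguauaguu
let-7b-5p: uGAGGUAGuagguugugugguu
let-7c-5p: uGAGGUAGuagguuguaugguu
let-7d-5p: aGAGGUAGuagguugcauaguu
let-7e-5p: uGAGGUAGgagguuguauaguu
let-7f-5p: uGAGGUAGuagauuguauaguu
let-7g-5p: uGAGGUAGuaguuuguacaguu
let-7i-5p: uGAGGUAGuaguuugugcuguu
miR-98-5p: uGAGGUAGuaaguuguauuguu

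All 9 were 22 bases long and carried a single seed, GAGGUAG, and they were the only holders of that seed among the 693 mature names in the RefSeq table. Counted from 1 at the 5′ end and with the base of let-7a-5p first, let-7c-5p differed from let-7a-5p by A19G, let-7e-5p by U9G and let-7f-5p by G12A. let-7b-5p carried A17G and A19G, let-7d-5p carried U1A and U16C, let-7g-5p carried G12U and U18C, and miR-98-5p carried G11A and A19U. let-7i-5p was the most distant from let-7a-5p, with G12U, A17G, U18C and A19U. No substitution fell in the seed. Among the 36 pairs of members, 4 differed at 1 position and 10 at 2, and the highest number of mismatches was 6. A read with an error or an untemplated base may therefore be assigned to a sister, and no source used here says how the authors' counting split such reads.

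RefSeq placed the 9 guides in 12 hairpins on 6 chromosomes of GRCr8, since let-7a-5p, let-7c-5p and let-7f-5p each have 2. On chromosome 17, let-7a-1 (chr17:16320145-16320166, plus strand), let-7f-1 and let-7d follow each other at 363 and 1765 bases from start to start, inside a long non-coding gene. let-7c-2 and let-7b lie 408 bases apart on chromosome 7 (let-7b at chr7:118684044-118684065, plus strand). let-7f-2 and miR-98 lie 611 bases apart on the X chromosome (miR-98 at chrX:24460663-24460684, plus strand), within Huwe1, which encodes a ubiquitin ligase. let-7e (chr1:67350243-67350264, plus strand) stands between miR-99b and miR-125a, at 173 and 446 bases, within Spaca6. let-7a-2 starts 6912 bases after miR-100 on chromosome 8, and let-7c-1 starts 44461 bases before miR-125b-2 on chromosome 11. let-7g (chr8:115701026-115701047, plus strand), within both Rpl29 and Wdr82, and let-7i (chr7:60527935-60527956, minus strand) have no such neighbour. A mature count does not say which of the 2 hairpins of let-7a, let-7c or let-7f it came from.

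Library totals ran from 3149262 to 11392178 counts in edited, 1982051 to 3568888 in PDGF-BB and 1783409 to 3850232 in differentiated libraries. The scaling of these libraries bears on every let-7 value. miR-143-3p, a smooth muscle miRNA, took 3.93 to 6.79% of all counts in edited, 12.9 to 15.1% in PDGF-BB and 18.3 to 20.4% in differentiated libraries. Levels are therefore given on 2 scales, as CPM scaled by the TMM factors of edgeR, which line up the bulk of miRNAs between libraries, and as CPM or percent of the library total. The 4 smooth muscle markers summed to 37105 to 63112 CPM with TMM factors in edited, 133158.5 to 171184 in PDGF-BB and 214826 to 251372 in differentiated libraries. The 2 endothelial markers summed to 2905 to 3346, 1791 to 1895 and 1760.0 to 2145 CPM in the same order of groups, and the 3 neural markers to 144 to 145, 26.7 to 31.4 and 32.4 to 41.1 CPM. The 6 blood markers summed to 75.6 to 98.2, 48.7 to 64.2 and 47.1 to 72.2 CPM, the 7 epithelial markers to 22.4 to 49.3, 38.1 to 53.2 and 74.6 to 105 CPM, and the 6 skeletal and cardiac markers to 65.6 to 102, 54.7 to 91.3 and 93.9 to 129 CPM. miR-451-5p, miR-223-3p, miR-124-3p, miR-205, miR-133b-3p and miR-208a-3p were under 1 CPM in every library. The endothelial sum lay above miR-98-5p in every library, and the part of these markers in the let-7 values was not tested.

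The family was among the most abundant in these cells, and its members kept nearly one order in all 9 libraries. let-7c-5p, which comes from the miR-99a and let-7b clusters, led in each library. It measured 68361, 48881 and 64198 CPM with TMM factors in edited, 63747, 64323 and 62609 in PDGF-BB and 71477, 71819 and 70908 in differentiated libraries. It stood at rank 3 or 4 of all miRNAs in every library. let-7b-5p measured 40637, 35725 and 44131 CPM in edited, 37741, 38329.7 and 38151 in PDGF-BB and 43025, 42109.5 and 40113 in differentiated libraries. let-7f-5p was so close to it that let-7b-5p was the higher of the pair in 6 of 9 libraries, and the ranges of the pair overlapped within every group. Both held ranks 6 to 8. let-7a-5p, the form conserved from worm to mammals, held ranks 8 to 11, and let-7i-5p ranks 11 to 13.

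The other 4 members were lower by a clear step. let-7i-5p exceeded let-7e-5p, the next in order, by 2.13 to 3.65 times in a library. let-7e-5p held ranks 19 to 30, let-7d-5p 29 to 34 and let-7g-5p 32 to 35. let-7d-5p was above let-7g-5p in all 9 libraries, by 1.00 to 1.15 times, and their ranges overlapped in PDGF-BB cells. let-7e-5p and let-7d-5p overlapped in edited cells, where edited replicate 2 brought the pair within 1.02 times of each other. miR-98-5p was the least abundant, at ranks 59 to 65 and with 943 to 1052 CPM in edited, 1017 to 1174 in PDGF-BB and 940.5 to 1050.0 in differentiated libraries. The most abundant member exceeded the least abundant by 49.2 to 76.0 times within a library. All members have the same length, so length does not set their CPM apart, but how evenly library preparation captures each of them was not measured.

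**Figure D1:**
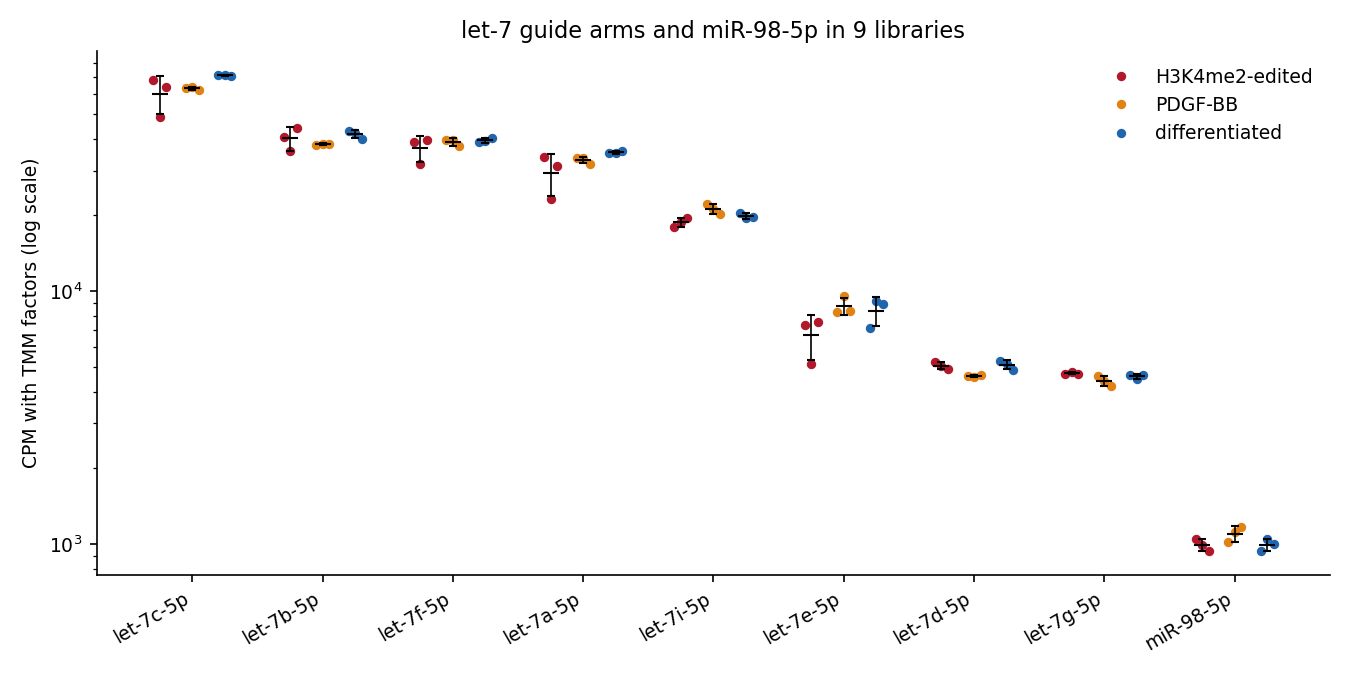
CPM with TMM factors (log axis) of the 9 let-7 guides, from the most to the least abundant, with 1 point per library and a black bar for the mean and SD of 3 libraries, for edited, PDGF-BB and differentiated cells. The order of members is nearly the same in each group, and the spread between groups is small beside the steps from let-7i-5p to let-7e-5p and from let-7g-5p to miR-98-5p.

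The summed family answers how much of the counted miRNA reads let-7 made up in each state, and the answer depended on the scale. The 9 guides together took 25.0, 22.4 and 24.9% of all counts in edited, 19.6, 20.3 and 21.5% in PDGF-BB and 19.2, 20.8 and 19.6% in differentiated libraries. The 3 edited libraries lay above all others on this scale, at 24.1 ± 1.46% against 20.5 ± 0.922% in PDGF-BB and 19.9 ± 0.812% in differentiated cells (SD, n = 3 each). With TMM factors the sum was 217964, 174289 and 216784 CPM in edited, 215309, 216642 and 208585 in PDGF-BB and 226942, 227577 and 226378 in differentiated libraries. On this scale the edited and the PDGF-BB libraries all lay below the differentiated ones, edited and PDGF-BB libraries overlapped, and edited replicate 2 stood lowest.

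The difference of mean log2 sums was 0.28 for edited against differentiated cells as a share of the total and −0.17 with TMM factors. For PDGF-BB against differentiated cells it was 0.044 and −0.088, and for edited against PDGF-BB cells 0.24 and −0.080. When miR-143-3p was taken out of the totals, the family held 26.8, 23.8 and 25.9% of the remaining counts in edited, 23.0, 23.9 and 24.6% in PDGF-BB and 23.7, 25.4 and 24.6% in differentiated libraries. The ranges of all 3 groups then overlapped. No p is given for the sum, since 3 libraries against 3 cannot go below 0.10 in an exact permutation test. Fewer cells that make let-7 and less let-7 per cell cannot be told apart in bulk RNA.

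**Figure D2:**
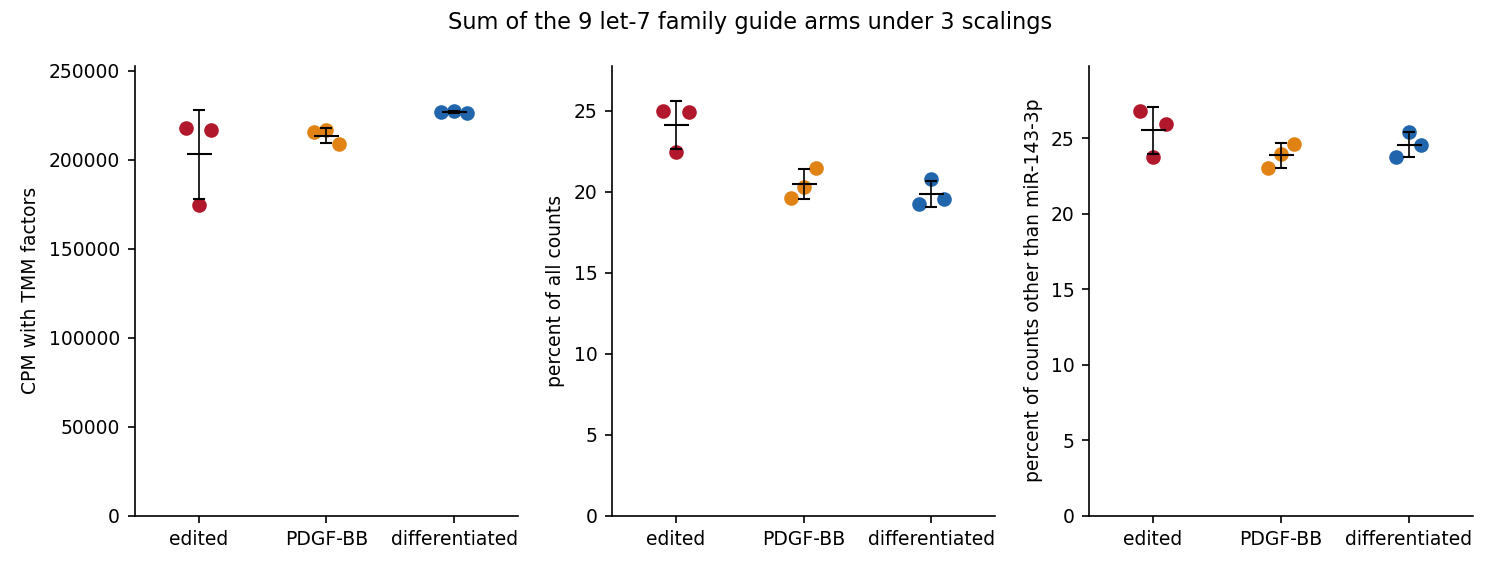
Summed counts of the 9 let-7 guides per library in edited, PDGF-BB and differentiated cells, on 3 scales with axes from 0: CPM with TMM factors, percent of all counts, and percent of counts other than miR-143-3p. Points are libraries and black bars the mean and SD of 3. The edited libraries are highest in percent of all counts, overlap the others without miR-143-3p, and lie below the differentiated libraries with TMM factors.

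Edited cells were first set against differentiated cells, the comparison of the transduced cells with the untreated state. With TMM factors none of the 9 guides passed the edgeR quasi-likelihood test at an adjusted p of 0.05, none reached an unadjusted p under 0.05, and none passed with DESeq2, while 59.2% of all tested miRNAs passed with edgeR and 58.9% with DESeq2. The log2 fold changes of the members ran from −0.32 to 0.042, with a median of −0.084, beside a median of −0.0064 over all 304. let-7e-5p, the middle guide of the miR-99b cluster, measured 7374, 5146 and 7575 CPM in edited and 7139.8, 9137 and 8866 CPM in differentiated libraries. The groups overlapped through edited replicates 1 and 3 and differentiated replicate 1, and the log2 fold change was −0.32 ± 0.16 (SE, edgeR adjusted p = 0.0944). let-7a-5p measured 33882, 23071 and 31192 CPM in edited and 35167, 35197 and 35919.7 CPM in differentiated libraries. Every edited library was lower, edited replicate 2 by the most, with a log2 fold change of −0.27 ± 0.13 (adjusted p = 0.0871).

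let-7c-5p gave −0.24 ± 0.11 (adjusted p = 0.0904), with all edited libraries below all differentiated ones. let-7g-5p was the only member with a positive value, 0.042 ± 0.08, at 4721, 4783 and 4725 CPM in edited and 4648, 4495 and 4675 CPM in differentiated libraries. Its edited libraries all lay above its differentiated ones, by a small step. The groups did not overlap in 4 members, let-7a-5p, let-7c-5p and let-7i-5p lower and let-7g-5p higher, against 63.5% of all tested miRNAs. miR-98-5p and let-7d-5p had values near 0, −0.0002 and −0.013. Every 95% interval of the 9 lay inside a 2-fold change, the widest reach being −0.67 for let-7e-5p and 0.22 for miR-98-5p. Without edited replicate 1, let-7a-5p and let-7c-5p passed, at −0.35 and −0.31. Without edited replicate 2 they had −0.068 and −0.053, and let-7e-5p had −0.11.

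On library totals the same comparison gave 6 members that rose in edited cells by the edgeR test, against 49.7% of all tested miRNAs that rose and a median log2 fold change of 0.44 over all of them. They were let-7g-5p (0.49 ± 0.09), miR-98-5p (0.45 ± 0.14), let-7d-5p (0.44 ± 0.10), let-7b-5p (0.39 ± 0.08), let-7i-5p (0.37 ± 0.08) and let-7f-5p (0.34 ± 0.07). let-7a-5p, let-7c-5p and let-7e-5p had 0.17, 0.20 and 0.11 and did not pass. let-7g-5p measured 5416, 6158 and 5434 CPM of the library total in edited and 3938, 4103 and 4041 CPM in differentiated libraries, with no overlap. The same 6 members had edited libraries above all differentiated ones, and none had them all below. Of all tested miRNAs, 65.5% did not overlap, counting either direction. The members' median was 0.37 on this scale. Set against the median of all tested miRNAs it stood at −0.076, and with TMM factors at −0.078. With totals that leave out miR-143-3p, let-7g-5p alone passed (0.27 ± 0.09), against 56.9% of all tested miRNAs.

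PDGF-BB cells were compared with differentiated cells to follow let-7 after the mitogen. No member passed with TMM factors and edgeR, and none had an unadjusted p under 0.05, against 10.2% of all tested miRNAs that passed. The log2 fold changes ran from −0.17 for let-7c-5p to 0.14 for miR-98-5p, with a median of −0.059, beside 0.031 over all tested miRNAs. All 9 intervals lay inside a 2-fold change, between −0.42 and 0.40. let-7c-5p was lower in every PDGF-BB library than in any differentiated one, by −0.17 ± 0.11 (adjusted p = 0.395). let-7a-5p, let-7b-5p and let-7d-5p also lay lower without overlap, so that 4 members did, and none lay higher without overlap. The share of all tested miRNAs without overlap, in either direction, was 35.2%.

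let-7d-5p measured 4629, 4598 and 4674 CPM in PDGF-BB and 5322, 5156 and 4895 CPM in differentiated libraries. The 3 PDGF-BB libraries stood close together below the others, and the log2 fold change was −0.15 ± 0.08 (edgeR adjusted p = 0.277). DESeq2 called this member alone, at −0.20 (adjusted p = 0.047), with 15.8% of all tested miRNAs called. let-7i-5p, encoded on its own, had 22096, 21139 and 20146 CPM in PDGF-BB and 20470.3, 19453 and 19586 CPM in differentiated libraries. The groups overlapped, and its log2 fold change was 0.091 ± 0.08 (adjusted p = 0.494). On library totals 0 members passed with edgeR and 1 reached an unadjusted p under 0.05, against 8.55% of all tested miRNAs that passed. The values of 7 members were then positive. let-7f-5p, let-7g-5p and let-7i-5p lay higher without overlap and none lower, against 34.5% of all without overlap in either direction.

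Edited cells were last set against PDGF-BB cells, the 2 de-differentiated states. No member passed with TMM factors and edgeR, against 58.9% of all tested miRNAs that did, and let-7e-5p and let-7i-5p had an unadjusted p under 0.05. let-7e-5p had 8254, 9533 and 8385 CPM in PDGF-BB libraries, and each of its edited values, given above, was lower. Its log2 fold change of −0.38 ± 0.16 was the largest of any member in any of the 3 comparisons with TMM factors (adjusted p = 0.0573). Without edited replicate 2 it was −0.14. let-7i-5p measured 17902, 18788 and 19434 CPM in edited libraries, below all 3 PDGF-BB values given above, with −0.18 ± 0.08 (adjusted p = 0.0725).

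let-7d-5p measured 5257, 5059.8 and 4922 CPM in edited libraries and let-7g-5p the values given above, and both lay above every PDGF-BB library. Their log2 fold changes were 0.13 ± 0.08 and 0.10 ± 0.08, and 4 members in all did not overlap, against 60.2% of all tested miRNAs. DESeq2 called let-7d-5p alone, at 0.17 (adjusted p = 0.0337), with 58.6% of all called. Without edited replicate 2, let-7b-5p passed at 0.24. The 9 intervals ran from −0.73 to 0.31, inside a 2-fold change.

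On library totals 5 members rose in edited against PDGF-BB cells, against 40.8% of all tested miRNAs and a median of 0.30 over all. They were let-7d-5p (0.45 ± 0.10), let-7g-5p (0.42 ± 0.09), let-7b-5p (0.39 ± 0.08), let-7c-5p (0.23 ± 0.09) and let-7f-5p (0.23 ± 0.07). On this scale 4 members lay higher without overlap and none lower, against 60.9% of all without overlap in either direction. let-7e-5p was the one member with a negative value on this scale, −0.077 ± 0.14. With miR-143-3p left out of the totals, let-7b-5p, let-7d-5p and let-7g-5p passed as higher and none as lower. Among all 304 tested miRNAs, 97 passed as higher and 68 as lower, 54.3% in both directions together. The 3 comparisons share libraries, so their values for a member are not independent.

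**Figure D3:**
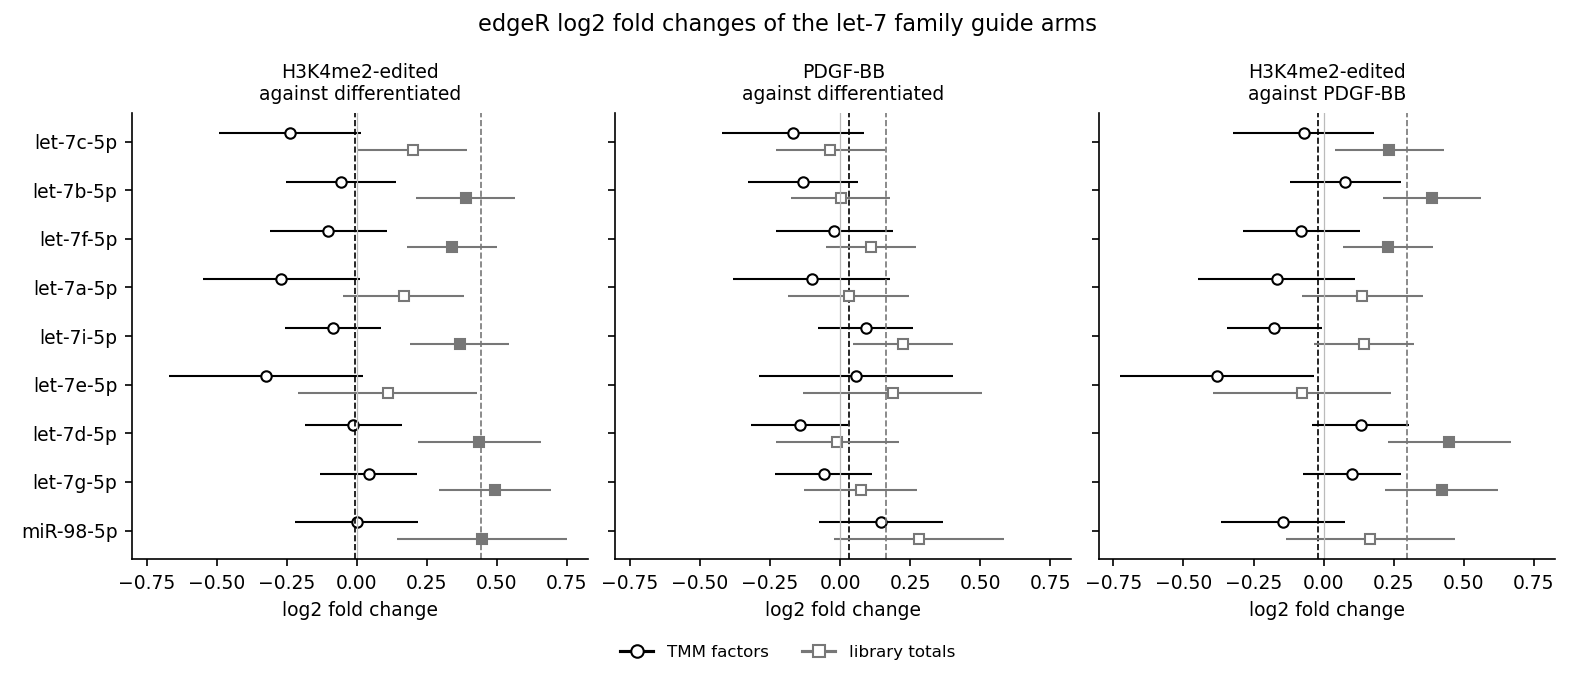
log2 fold changes of the 9 let-7 guides in the 3 comparisons, with TMM factors (black circles) and library totals (grey squares). Lines are 95% intervals, filled markers passed the edgeR test at an adjusted p of 0.05 and open ones did not, and dashed lines are the median of all 304 tested miRNAs on that scale. With TMM factors no marker is filled, and with library totals the members move up together with the median of all miRNAs in both comparisons of edited cells.

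The balance among members does not depend on how a library is scaled, so each guide was also expressed as a percent of the family sum. let-7c-5p made up 31.4, 28.1 and 29.6% of the sum in edited, 29.6, 29.7 and 30.0% in PDGF-BB and 31.5, 31.6 and 31.3% in differentiated libraries. Its share was highest in differentiated cells and lower in every PDGF-BB library, while the edited libraries spread over both. The 3 most abundant members, let-7c-5p, let-7b-5p and let-7f-5p, held 65.6% to 68.3% of the sum in every library. let-7e-5p made up 3.38, 2.95 and 3.49% in edited, 3.83, 4.40 and 4.02% in PDGF-BB and 3.15, 4.01 and 3.92% in differentiated libraries. All edited shares lay below all PDGF-BB shares.

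No member passed an edgeR fit that used the family sum as library size, in any comparison, against 53.6%, 6.25% and 51.3% of all tested miRNAs for edited against differentiated, PDGF-BB against differentiated and edited against PDGF-BB cells. The members enter their own denominator, which removes a change they share and pulls the abundant ones toward 0. Other miRNAs are not held in this way, so members and all tested miRNAs are not alike on this scale, nor in the overlap of shares. At an unadjusted p under 0.05 the counts of members were 0, 0 and 1. The member at p under 0.05 was let-7e-5p in edited against PDGF-BB cells, at −0.32 ± 0.13 (adjusted p = 0.0504). It passed, at −0.36, when let-7a-5p, let-7c-5p and let-7f-5p were left out of the sum. DESeq2 was not run on this scale.

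let-7g-5p, at 2.17, 2.74 and 2.18% of the sum in edited and 2.05, 1.98 and 2.06% in differentiated libraries, was the 1 member whose share did not overlap between these groups, against 58.6% of all tested miRNAs per summed members. Its difference was 0.22 ± 0.12 (edgeR adjusted p = 0.16). Between PDGF-BB and differentiated cells 4 shares did not overlap, those of let-7f-5p, let-7i-5p and miR-98-5p higher and of let-7c-5p lower, against 36.2% of all. let-7i-5p made up 10.3, 9.76 and 9.66% in PDGF-BB and 9.02, 8.55 and 8.65% in differentiated libraries. Between edited and PDGF-BB cells 4 shares did not overlap, those of let-7b-5p, let-7d-5p and let-7g-5p higher and of let-7e-5p lower, against 55.6% of all. Edited replicate 2 had the lowest shares of let-7a-5p, let-7c-5p and let-7e-5p of all 9 libraries and the highest of let-7b-5p, let-7d-5p, let-7g-5p, let-7i-5p and miR-98-5p. It was also the deepest library, and the part of depth in this was not tested.

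**Figure D4:**
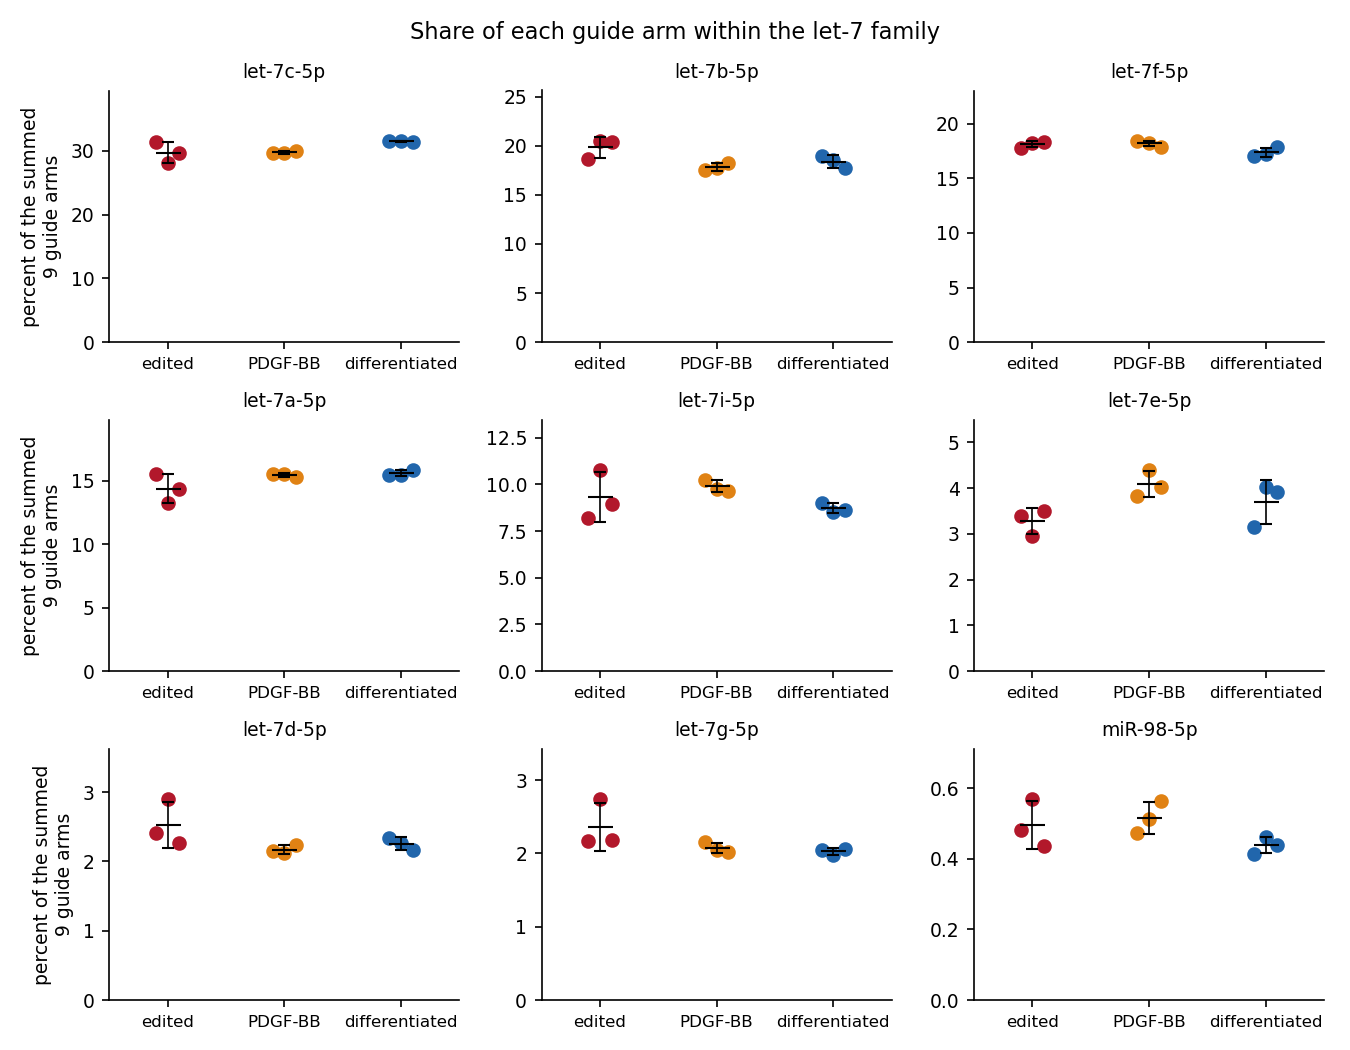
Percent of the summed let-7 counts held by each of the 9 guides, 1 panel per guide with its own axis from 0, for edited, PDGF-BB and differentiated cells. Points are libraries and black bars the mean and SD of 3. The shares change little between groups, edited replicate 2 has the smallest let-7c-5p share, 28.1%, and the edited shares of let-7e-5p lie below those of PDGF-BB cells.

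The passenger strands of the same hairpins were scarce throughout. The table held 11 let-7 and miR-98 3p arms, all tested, and together they made up 0.273% to 0.393% of the family's counts in a library. Sequences for 2 are shown because they are the strands that differed between edited and PDGF-BB cells, read from the RefSeq table without marked bases.
let-7a-1-3p: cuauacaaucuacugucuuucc
let-7e-3p: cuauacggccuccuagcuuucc

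let-7a-1-3p has the same letters as let-7c-2-3p, so its counts can come from both hairpins. It measured 299, 339.9 and 376 CPM with TMM factors in edited, 270.4, 269 and 272 in PDGF-BB and 289, 276 and 287 in differentiated libraries. All edited libraries lay above all others. It rose in edited against PDGF-BB cells, by 0.33 ± 0.11 (edgeR adjusted p = 0.0264), a call lost without edited replicate 3 or without PDGF-BB replicate 2 or 3. On library totals it also rose, by 0.64, but it did not pass with the family sum as library size (edgeR adjusted p = 0.0572). let-7e-3p measured 13.6, 16.6 and 17.4 CPM in edited and 23.8, 21.4 and 27.5 CPM in PDGF-BB libraries. All edited libraries were lower, as they were for its guide let-7e-5p, and it fell by 0.60 ± 0.19 on the log2 scale (adjusted p = 0.0201). The call was lost on library totals, at −0.29, with totals that leave out miR-143-3p, without the low-count filter, and without edited replicate 2 or PDGF-BB replicate 3. let-7e-3p also did not pass with the family sum as library size (edgeR adjusted p = 0.0871). let-7a-1-3p and let-7e-3p were the 2 of 11 3p arms that passed in this comparison with TMM factors, against 58.9% of all tested miRNAs.

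In edited against differentiated cells 1 of 11 3p arms passed, let-7f-1-3p, which rose by 0.55 ± 0.21 (adjusted p = 0.0445), against 59.2% of all tested miRNAs that passed. On library totals 4 of 11 rose, against 49.7% of all, and with totals that leave out miR-143-3p 3 of 11 passed, against 56.9%. With the family sum as library size 2 of 11 passed, let-7a-1-3p and let-7f-1-3p, both higher, against 53.6% of all in either direction. let-7f-1-3p had 13.6, 16.1 and 15.6 CPM with TMM factors in edited and 7.94, 12.8 and 9.20 CPM in differentiated libraries, without overlap, and rested on 12 to 45 counts in each differentiated library. Its call was lost with DESeq2, with the 6 compared libraries alone, and without any one of 7 of the 9 libraries. In PDGF-BB against differentiated cells 0 of 11 passed with edgeR and 0 with DESeq2, against 10.2% and 15.8% of all tested miRNAs, with 2 at an unadjusted p under 0.05 by each.

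The 3p share of a hairpin set is free of library scaling. For let-7a it was 0.886, 1.46 and 1.20% of 5p and 3p counts in edited, 0.804, 0.805 and 0.858% in PDGF-BB and 0.818, 0.784 and 0.799% in differentiated libraries. The edited libraries were higher than all others, edited replicate 2 most. let-7a was the 1 of 9 hairpin sets whose 3p share did not overlap between edited and differentiated cells. Among the 98 hairpins with both arms tested and the same name for both arms, 18.4% did not overlap. These 98 leave out let-7a, let-7c and let-7f, whose 3p arms carry a hairpin number in their names. Between PDGF-BB and differentiated cells let-7b and let-7f had higher 3p shares without overlap. Of the 98 hairpins, 17 were higher and 9 lower, 26.5% in both directions together. Between edited and PDGF-BB cells let-7a and let-7c had higher 3p shares without overlap, beside 10 higher and 11 lower of the 98, 21.4% together. No let-7 set had a lower share without overlap in either comparison. For let-7f the share was 0.0765, 0.0683 and 0.0757% in PDGF-BB and 0.0461, 0.0566 and 0.0468% in differentiated libraries. The 3p share was 1.30% to 2.04% for let-7d and 1.92% to 2.46% for miR-98, and it reached at most 0.462% in the sets of let-7b, let-7c, let-7e, let-7f, let-7g and let-7i. The let-7c share does not hold let-7c-2-3p, which has no row of its own in the table, and the let-7a share may hold its reads, so the shares of these 2 sets may be set too low and too high.

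Several let-7 hairpins are transcribed with miR-99, miR-100 and miR-125 hairpins in mammals, and these 5 guides were set beside their let-7 partners. In edited against differentiated cells 4 of 5 fell with TMM factors and edgeR, against 27.0% of all tested miRNAs that fell, and 0 of 9 let-7 guides did. miR-125b-5p belongs to the clusters of both let-7c-1 and let-7a-2 in mammals. It measured 85495, 61152 and 79027 CPM in edited, 158991, 148542 and 129814 in PDGF-BB and 148979, 128668 and 142359 in differentiated libraries. All edited libraries were far below the others, at −0.90 ± 0.13 against differentiated cells (adjusted p = 0.00042), where let-7c-5p had −0.24 and let-7a-5p −0.27. miR-100-5p, the other neighbour of let-7a-2, measured 746, 609.6 and 579.9 CPM in edited and 1201, 1269 and 1133 CPM in differentiated libraries. Its edited libraries were all lower, by −0.90 ± 0.11 (adjusted p = 0.00019), beside −0.27 for let-7a-5p. The counts of let-7a-5p and let-7c-5p each pool 2 hairpins, and the part of each cluster in them was not tested.

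miR-125a-5p and miR-99b-5p, on either side of let-7e, fell by 0.45 and 0.28 on the log2 scale in edited against differentiated cells, where let-7e-5p had −0.32. On library totals their values were 0.0009 and 0.17 and did not pass, and the call of miR-99b-5p was also lost in 7 of the 9 fits without 1 library. miR-99a-5p, the other neighbour of let-7c-1, had −0.31 and did not pass (adjusted p = 0.0672). On library totals miR-125b-5p and miR-100-5p still fell, by 0.45 and 0.45. No test set a neighbour against its partner directly, except that with the family sum as library size miR-125b-5p (−0.74), miR-100-5p (−0.73) and miR-125a-5p (−0.28) fell relative to the summed let-7 guides, against 18.1% of all tested miRNAs.

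In edited against PDGF-BB cells 4 of 5 neighbours fell with TMM factors, against 30.9% of all tested miRNAs, namely miR-125b-5p (−0.95 ± 0.13), miR-100-5p (−0.74 ± 0.11), miR-99b-5p (−0.53 ± 0.10) and miR-125a-5p (−0.40 ± 0.07). On library totals the first 2 fell and miR-99a-5p rose, by 0.48. let-7e-5p, between miR-99b and miR-125a, had −0.38, close to miR-125a-5p. In PDGF-BB against differentiated cells miR-99a-5p fell by 0.48 (adjusted p = 0.0481), against 2.96% of all that fell, and the call was lost on library totals and in 7 of the 9 fits without 1 library.

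**Figure D5:**
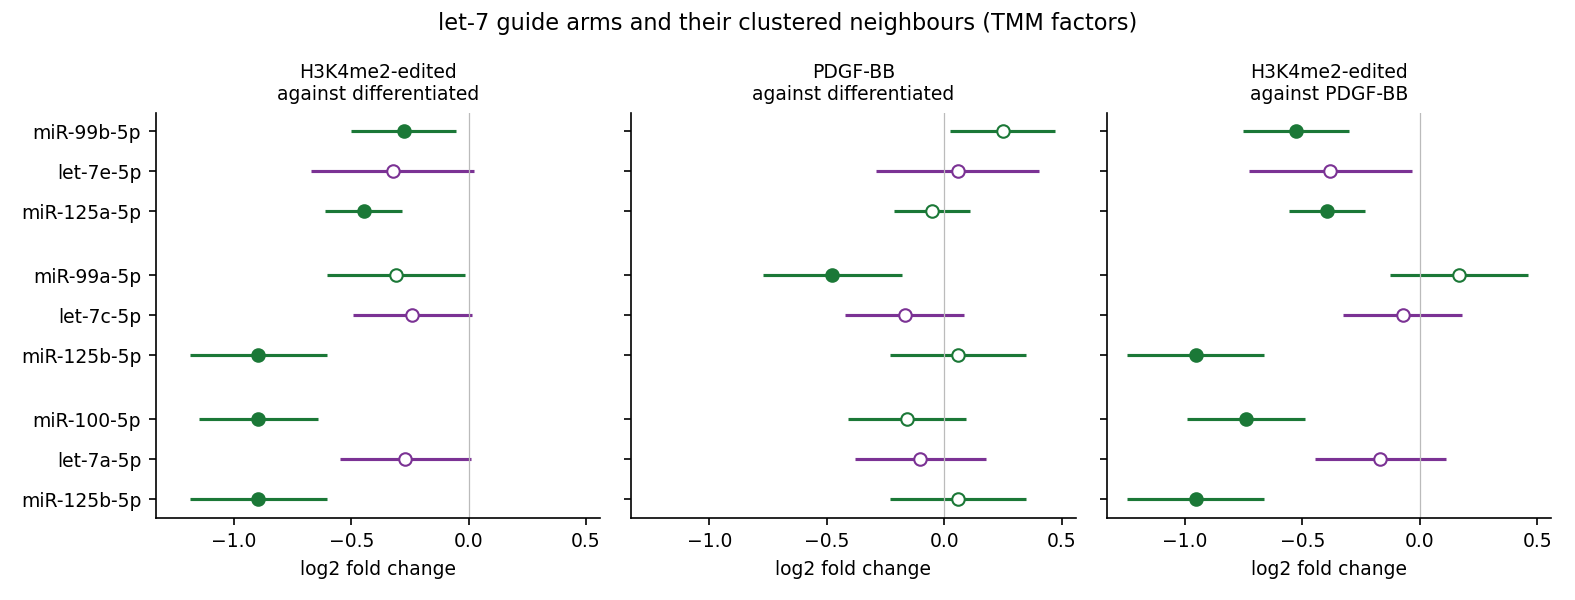
log2 fold changes with TMM factors of let-7 guides (purple) and of the guides of neighbouring hairpins (green) in the 3 comparisons, grouped by cluster, with miR-125b-5p drawn in both of its clusters. Lines are 95% intervals, filled markers passed the edgeR test at an adjusted p of 0.05 and open ones did not. In both comparisons of edited cells miR-125b-5p and miR-100-5p lie well below their let-7 partners, and on library totals, not drawn, these 2 still fell while miR-125a-5p and miR-99b-5p had values of 0.0009 and 0.17 against differentiated cells.

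The miRNAs whose levels followed the summed family most closely over the 9 libraries were found by the root mean square difference of centred log2 CPM with TMM factors, with a pseudocount of 0.5 CPM. They were miR-872-5p, at 0.095, miR-30e-5p, at 0.104, miR-16-5p, at 0.120, miR-101b-3p, at 0.136, and miR-26b-5p, at 0.139. The median over all other tested miRNAs was 0.440. The members themselves lay between 0.037 for let-7f-5p and 0.177 for let-7e-5p from their own sum. miR-16-5p, of the miR-15/16 family known for restraint of cell cycle genes, averaged 59840.0 ± 11930.4 CPM in edited, 55728 ± 492 in PDGF-BB and 56853 ± 2234 in differentiated cells (SD, n = 3 each). These likenesses describe the 9 libraries only, and a level that hardly moves is close to any other that hardly moves.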

How the data were processed

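Total RNA of cultured rat aortic smooth muscle cells was made into small RNA libraries with the QIAseq kit and sequenced on a NextSeq, per the labels' protocols. Per the submitters' processing notes, Rnor_6.0 served as genome build. No aligner, counting tool or use of molecular identifiers is named in those sources. The authors deposited raw counts per mature miRNA, and nothing was normalized. Every row of the table named a miRNA, and 0 columns belonged to other samples.

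Groups and replicates came from the sample titles, which matched the table's columns. All 9 libraries entered 1 quasi-likelihood model in edgeR 4.0.16 (R 4.3.3) with group means and TMM factors, after a low-count filter (filterByExpr, minimum 10) that kept 304 of 502 miRNAs with a count. P-values were Benjamini-Hochberg adjusted over those 304, with a threshold of 0.05, and each SE is the size of the log2 fold change over the root of its F statistic. Other scalings were library totals, totals without miR-143-3p (added after the data were seen) and the sum of the 9 let-7 guides. DESeq2 1.42.0 was an alternative. The scripts were tested on simulated data. Named were the 9 members, the 3p arms of their hairpins, 5 guides of neighbouring hairpins and the 5 miRNAs most like the family sum. Members and lists were chosen with earlier results of these data known. Whether replicates are separate cultures is not in the labels, so a p-value reflects only how these libraries vary, possibly for technical reasons. Sequences and positions are from RefSeq, build GRCr8, and were not used for counting.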

Additional observations from a re-analysis of the deposited data

How the results depend on the processing

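No let-7 guide passed in any comparison with edgeR and TMM factors, with DESeq2 size factors, with the 6 compared libraries alone, without the low-count filter or with the replicate block. The scaling moved these counts. For edited against differentiated cells 6 members passed on library totals and 1 with totals that leave out miR-143-3p, and for edited against PDGF-BB cells 5 and 3 did. The DESeq2 test called 1 member in PDGF-BB against differentiated cells, where it called 48 of all miRNAs in place of 31, and 1 in edited against PDGF-BB cells. With a family sum that lacks let-7a-5p, let-7c-5p and let-7f-5p, 1 member passed in edited against PDGF-BB cells. The cause was not tested, beyond the shift of the median of all miRNAs with the scale, 0.44, 0.16 and 0.30 for the 3 comparisons on library totals.

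Signs turned with the scale. On library totals the log2 fold changes for edited against differentiated cells became 0.17 (let-7a-5p), 0.39 (let-7b-5p), 0.20 (let-7c-5p), 0.44 (let-7d-5p), 0.11 (let-7e-5p), 0.34 (let-7f-5p), 0.37 (let-7i-5p), 0.45 (miR-98-5p), 0.17 (miR-99b-5p) and 0.0009 (miR-125a-5p). For PDGF-BB against differentiated cells they became 0.030 (let-7a-5p), 0.0013 (let-7b-5p), 0.11 (let-7f-5p) and 0.073 (let-7g-5p), and for edited against PDGF-BB cells 0.14 (let-7a-5p), 0.23 (let-7c-5p), 0.23 (let-7f-5p), 0.14 (let-7i-5p) and 0.17 (miR-98-5p). With totals that leave out miR-143-3p, edited against differentiated cells gave 0.16 (let-7b-5p), 0.21 (let-7d-5p), 0.11 (let-7f-5p), 0.14 (let-7i-5p) and 0.22 (miR-98-5p). PDGF-BB against differentiated cells gave 0.023 (let-7f-5p), and edited against PDGF-BB cells 0.095 (let-7c-5p), 0.090 (let-7f-5p), 0.0032 (let-7i-5p) and 0.029 (miR-98-5p). Without the low-count filter, edited against differentiated cells gave 0.057 (let-7b-5p), 0.10 (let-7d-5p), 0.012 (let-7f-5p), 0.032 (let-7i-5p) and 0.12 (miR-98-5p), and edited against PDGF-BB cells 0.038 (let-7c-5p) and 0.031 (let-7f-5p). With the smaller family sum, let-7f-5p and let-7i-5p became −0.026 and −0.0011 in edited against differentiated cells, and let-7g-5p −0.012 in PDGF-BB against differentiated cells.

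For libraries with equal replicate numbers, deviations from the group means correlated above 0.1 in 4 of 9 pairs (correlations −0.032 to 0.415). Pairs with unequal numbers spread wider. Differentiated replicate 2 correlated at 0.523 with PDGF-BB replicate 3 and at −0.433 with PDGF-BB replicate 1. The labels give the numbers no meaning. With the replicate number as a block, 182, 29 and 181 miRNAs passed in edited against differentiated, PDGF-BB against differentiated and edited against PDGF-BB cells, in place of 180, 31 and 179. No member passed with it, and 1 member changed sign, miR-98-5p at 0.0018 in edited against differentiated cells.

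Leaving out each library in turn gave 0 to 2 members called for edited against differentiated cells and 0 to 1 for edited against PDGF-BB cells, and, on the family sum, 0 to 2 for edited against PDGF-BB cells. All calls for PDGF-BB against differentiated cells ran from 3, without differentiated replicate 3, to 53, without edited replicate 1. Ranges that crossed 0 in edited against differentiated cells were −0.099 to 0.076 (let-7b-5p), −0.059 to 0.074 (let-7d-5p), −0.13 to 0.047 (let-7f-5p) and −0.016 to 0.073 (miR-98-5p). In PDGF-BB against differentiated cells they were −0.025 to 0.12 (let-7e-5p) and −0.057 to 0.0086 (let-7f-5p), and in edited against PDGF-BB cells −0.22 to 0.061 (let-7a-5p), −0.10 to 0.14 (let-7c-5p) and −0.11 to 0.095 (let-7f-5p). On the family sum they were −0.025 to 0.18 (let-7i-5p, edited against differentiated), and, for edited against PDGF-BB cells, −0.046 to 0.034 (let-7c-5p), −0.017 to 0.0067 (let-7f-5p) and −0.17 to 0.028 (miR-98-5p). Depth limits the 3p arms, of which let-7a-2-3p had 2 to 24 counts and let-7g-3p 9 to 90.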
